A study of Mus musculus with 11 samples.

Results

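The genes described here are 7 markers of the heart's chambers. Myl4, Myl7, Sln and Mybphl mark the atria, and Myl2, Myl3 and Irx4 mark the ventricles. They were chosen by name, with earlier results of these data known. All 7 were measured, and they stand among 18194 genes tested on 11 arrays of mouse heart RNA. Where several probe sets carried a gene's symbol and no other, the brightest on average over the 11 arrays was used.

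The study asked what extra HMGN5, a nucleosome-binding protein that loosens chromatin, does to gene expression in the heart. There were 3 arrays of HMGN5 transgenic adult hearts, 3 of control adult hearts, 3 of HMGN5 transgenic newborn hearts and 2 of control newborn hearts, all on the C57BL/6 background and each labelled a biological replicate. The transgenic mice carried a mouse Hmgn5 cDNA with a FLAG tag behind a floxed LacZ cassette and the CAG promoter, and alphaMHC-cre, which acts in heart muscle cells, removed the cassette. The controls were labelled wild-type with no cre named, so cre and Hmgn5 cannot be told apart. The sample labels give the tissue as heart, and the design text says that left ventricle was taken. The exact ages, the sex and the number of animals behind an array are not given in the sources used here. P-values measure the spread between these arrays.

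Values are log2 expression as deposited, with array medians from 5.12 to 5.18 and array maxima from 14.21 to 14.37. Pairs of arrays of 1 group correlated at r = 0.975 to 0.992 (adult) and 0.994 to 0.997 (newborn). Signal of the targeted gene Hmgn5 was not raised by the transgene on its probe set, at 8.29, 8.26 and 8.71 in transgenic adults, against 8.44, 8.77 and 8.52 in control adults. The probe set does not check the labels, because it is not stated whether the transgene holds the bases it reads. Replicate 3 of both adult groups stood apart in the 18S ribosomal RNA control probes, at 12.18 (transgenic) and 11.89 (control), against 7.64 to 8.58 on the other adult arrays and 10.05 to 10.53 on the newborn arrays. This is called the 18S batch below. It is a split seen in the values and no label names it.

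The heart muscle filament is built from myosin heavy chains, each holding an essential and a regulatory light chain, and atria and ventricles use different genes for both. Myl4 encodes the essential and Myl7 the regulatory light chain of the atria, while Myl3 and Myl2 encode those of the ventricles. Sln encodes sarcolipin, a small membrane protein that slows the calcium pump SERCA and is made in mouse atria. Mybphl encodes a myosin-binding protein of the atria and the conduction system. Irx4 encodes a transcription factor of the ventricles. In the mouse, Myl7 is first made along the whole heart tube and later becomes atrial, and Myl4 is also made in the ventricle before birth.

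The RefSeq promoter table (GRCm38.p6) held 6 of the 7 members, in 7 windows of 300 bases, each with 250 bases before the gene start and 50 after it. Both strands of 32851 windows were searched for 4 motifs: the CArG box bound by serum response factor, the MEF2 site, TATAAA and AGGTCA. The CArG box, found in 1.63% of all windows, was present in the windows of Myl3 and Myl7, 1 ventricular and 1 atrial light chain gene. The first pair of lines below shows these sites, with the box in capitals, at chr9:110763583-110763612 (plus strand) for Myl3 and chr11:5898824-5898853 (minus strand) for Myl7. The second pair shows the other matches, both near Myl2 on the plus strand: AGGTCA at chr5:122093036-122093065 and TATAAA, on the opposite strand, at chr5:122092961-122092990, with the motif in capitals. AGGTCA was in 16.3% and TATAAA in 13.6% of all windows. The MEF2 site was in 0.557% of all windows and in 0 of the members' windows, and the windows of Myl4, Mybphl and Irx4 held none of these letters. Each coordinate range covers the 30 bases shown, with the motif inside it. The 4 sites shown share no base. A match describes the letters alone.
Myl3 CArG box: gagccaatgcCCTTTTATGGccctgtccct
Myl7 CArG box: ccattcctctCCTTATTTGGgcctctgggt
Myl2 AGGTCA: ggggctgcagacAGGTCAggccacagctgt
Myl2 TATAAA: cagaccatggccTTTATAtagatcactggg

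The atrial genes split the adult arrays, and the split ran inside the transgenic group. On 2 of the 3 transgenic adult arrays, replicates 2 and 3, each atrial gene was below every other array of the series, while transgenic replicate 1 lay within or above the lower control values. The 3 ventricular genes did not follow. Taken as groups, 0 of the 7 members passed the test between transgenic and control adults.

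Sln, the SERCA inhibitor, read 9.99, 4.82 and 5.20 in transgenic adults (replicates 1, 2 and 3), against 9.74, 10.10 and 12.08 in control adults. Transgenic replicates 2 and 3 were low, transgenic replicate 1 lay between control replicates 1 and 2, and control replicate 3 was the highest adult array. In its array's ranking of the 18194 genes, Sln stood at percentile 29.8 and 37.6 in transgenic replicates 2 and 3, at 92.7 in transgenic replicate 1, and at 91.3 to 98.6 in controls. The 6 adult arrays spanned 7.26 on the log2 scale, a 153-fold range.

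Myl7, the atrial regulatory light chain, read 10.54, 6.58 and 6.62 in transgenic adults, against 10.25, 10.60 and 12.59 in control adults. The picture was that of Sln, with transgenic replicates 2 and 3 low, transgenic replicate 1 among the controls and control replicate 3 on top. Its adult range was 64.5-fold. Myl4, the atrial essential light chain, read 11.06, 8.35 and 7.72 in transgenic adults, against 10.30, 10.45 and 12.03 in control adults. Transgenic replicate 1 was above control replicates 1 and 2 here, and the adult range was 19.8-fold. On the low arrays Myl4 stood at percentiles 77.6 and 71.7 of its array, and Myl7 at 53.2 and 57.1. Mybphl, the myosin-binding protein gene, read 7.56, 5.08 and 5.45 in transgenic adults, against 6.05, 6.95 and 8.31 in control adults. Its groups overlapped as well. Its adult range was 9.37-fold, measured from values of transgenic replicates 2 and 3 that stood at percentiles 33.3 and 41.2 of their arrays.

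**Figure D1:**
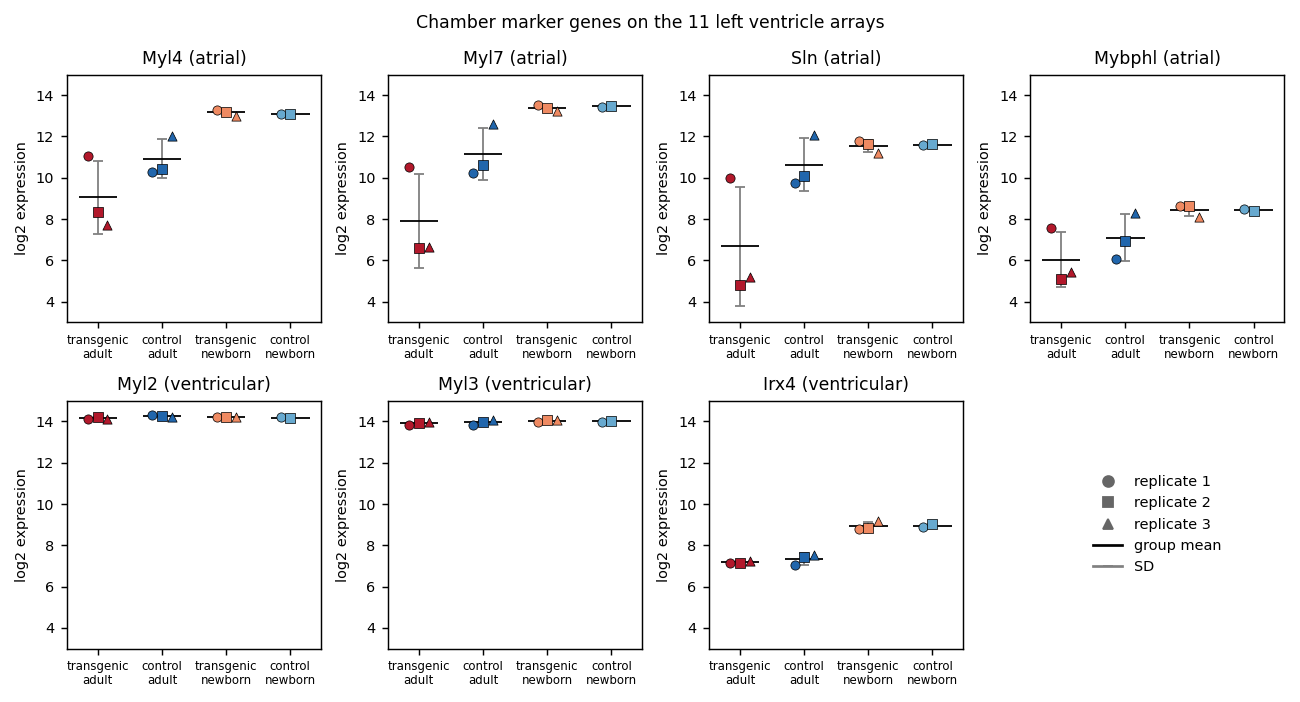
Log2 expression (vertical axis) of the 7 chamber markers on each of the 11 arrays, by group, with the marker shape giving the replicate, the black line the group mean and the grey bar the SD. In the 4 atrial panels transgenic adult replicates 2 and 3 (Sln 4.82 and 5.20) lie far below transgenic replicate 1 (9.99), while the panels of Myl2, Myl3 and Irx4 show no such split.

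As group means, Sln averaged 6.67 ± 2.88 in transgenic adults and 10.64 ± 1.26 in control adults (SD, n = 3 each). The log2 fold change of -3.97 (SE 1.11, 95% interval -6.42 to -1.52, limma adjusted p = 0.0575) did not pass the threshold of 0.05 over all genes. The interval belongs to 1 gene and is not adjusted. The SE, interval and p also draw on the newborn arrays, where Sln varied less (pooled SD 0.24, against 2.22 in adults). They therefore understate the adult spread, here and for the other atrial genes. With the adult arrays alone the limma adjusted p was 0.230 for Sln and 0.238 for Myl7. Myl7 averaged 7.91 ± 2.27 in transgenic adults and 11.15 ± 1.26 in control adults (SD, n = 3 each). Its log2 fold change was -3.23 (SE 0.92, limma adjusted p = 0.0605). Myl4 averaged 9.04 ± 1.77 and Mybphl 6.03 ± 1.34 in transgenic adults, against 10.93 ± 0.96 and 7.10 ± 1.14 in control adults (SD, n = 3 each). Their log2 fold changes were -1.88 (SE 0.71, limma adjusted p = 0.158) and -1.07 (SE 0.63, limma adjusted p = 0.401). For comparison, 7.09% of all genes passed the test in this contrast, 4.16% higher and 2.93% lower in transgenic hearts. The median log2 fold change was -2.56 over the 4 atrial members and 0.00 over all genes.

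The single arrays decide these values. Between arrays of the same replicate number, which the data do not show to be pairs, transgenic minus control Sln was 0.25, -5.28 and -6.88 for numbers 1, 2 and 3, and Mybphl was 1.51, -1.87 and -2.86. Without transgenic replicate 1, the log2 fold changes were -5.63 for Sln (limma adjusted p = 8.36e-04), -4.55 for Myl7 (adjusted p = 0.00207) and -2.89 for Myl4 (adjusted p = 0.00599), and all 3 passed. That array is the one with the highest atrial values of its group, so leaving it out favours a call. Without replicate 3 of both groups, the 18S batch, Sln was at -2.51 (adjusted p = 0.215), Myl7 at -1.87 (adjusted p = 0.232) and Myl4 at -0.67 (adjusted p = 0.589). Within the 18S batch alone there is 1 array against 1, with transgenic minus control differences of -6.88 for Sln and -5.97 for Myl7. Low atrial values thus occurred on 1 transgenic array with low and 1 with high 18S signal.

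The control adult arrays differed among themselves in the same 4 genes. Control replicate 3 exceeded control replicate 1 by 2.34 in Sln, 2.35 in Myl7, 2.26 in Mybphl and 1.73 in Myl4 on the log2 scale, so 3 of the 4 genes moved by nearly the same amount. Measured from the control mean, Sln and Myl7 lay at -0.90 and -0.90 in control replicate 1, at -0.54 and -0.54 in control replicate 2 and at 1.44 and 1.44 in control replicate 3. In transgenic replicates 2 and 3 Sln lay at -5.82 and -5.44, and Myl7 at -4.57 and -4.53, but Sln was there at or near the array median, so the sizes of these steps are not compared. Control replicate 3 was also the adult array with signal of the brown fat gene Ucp1, at 7.62 against 3.71 to 3.91 on the other adult arrays, and of the fat hormone gene Adipoq, at 7.89 against 3.23 to 4.64. Their part in its atrial values was not tested. In such bulk samples, fewer atrial cells and less atrial RNA per cell cannot be told apart.

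**Figure D2:**
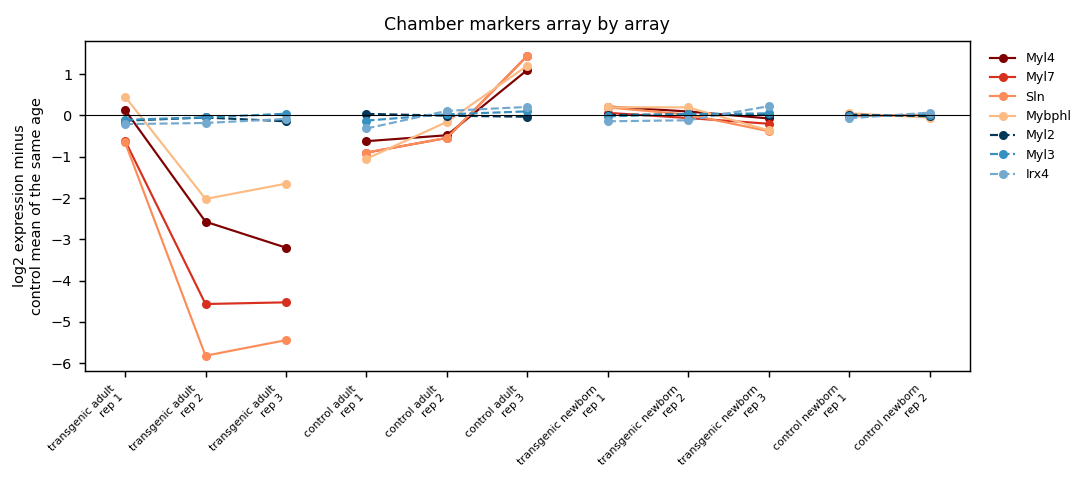
Log2 expression of each chamber marker minus the control mean of the same age (vertical axis) on each of the 11 arrays, with solid lines for the 4 atrial and dashed lines for the 3 ventricular genes. Sln and Myl7 overlie each other on the control adult arrays (-0.90, -0.54 and 1.44) and both are low on transgenic adult replicates 2 and 3, where Sln is near the array median, and all newborn values lie close to 0.

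The ventricular light chains were at the top of the scale on every array. Myl2 read 14.13, 14.21 and 14.12 in transgenic adults, against 14.30, 14.26 and 14.23 in control adults. The groups did not overlap, as was so for 17.9% of all genes (10% higher and 7.94% lower in transgenic hearts), and the difference of -0.11 (SE 0.09, 95% interval -0.30 to 0.09, limma adjusted p = 0.599) did not pass. Myl2 lay 0.03 to 0.24 below the highest value of its array, so a rise would hardly show. Myl3 read 13.84, 13.90 and 13.99 in transgenic adults, against 13.83, 13.98 and 14.05 in control adults, and the groups overlapped. Its log2 fold change was -0.04 (SE 0.10, 95% interval -0.26 to 0.18, limma adjusted p = 0.902). Myl3 lay 0.17 to 0.53 below the highest value of its array and is limited in the same way. Both genes were above percentile 99.9 of their array on all 11 arrays. High levels of the atrial genes stood beside them, with Myl7 at percentiles 94.0 to 99.1 in control adults and 99.7 to 99.9 in newborns, and which part of the heart was taken could not be checked from these values.

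Irx4, the ventricular transcription factor, is measured in the middle of the scale, where changes in both directions can show. It read 7.13, 7.16 and 7.26 in transgenic adults, against 7.02, 7.45 and 7.55 in control adults, and control replicate 1 lay below all 3 transgenic arrays. The log2 fold change was -0.16 (SE 0.15, 95% interval -0.49 to 0.18, limma adjusted p = 0.659). On the arrays where the atrial genes were lowest, transgenic replicates 2 and 3, Irx4 lay at -0.18 and -0.08 from the control mean. On control replicate 3, where the atrial genes were highest among adults, Irx4 was at its highest adult value too.

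In newborn hearts transgenic and control arrays overlapped. Myl4 read 13.30, 13.18 and 13.01 in transgenic newborns, against 13.09 and 13.07 in control newborns. Myl7 read 13.52, 13.39 and 13.25 in transgenic newborns, against 13.45 and 13.46 in control newborns. Sln read 11.80, 11.63 and 11.22 in transgenic newborns, against 11.58 and 11.63 in control newborns. In each of the 3 genes the control pair lay inside the range of the transgenic arrays. Mybphl read 8.64, 8.64 and 8.08 in transgenic newborns, against 8.50 and 8.39 in control newborns, and the control pair again lay inside the transgenic range. All 4 atrial genes were lowest on transgenic newborn replicate 3.

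Between transgenic and control newborns 0 of 7 members passed, and 0% of all genes did. With limma, 198 of 18194 genes had an unadjusted p under 0.05, and the adjusted p was 0.999985 for each member. The 7 log2 fold changes lay between -0.07 for Myl7 and 0.08 for Myl4. The test bounds them loosely, because the spread is shared with the uneven adults: the 95% interval ran from -2.79 to 2.68 for Sln (SE 1.24), although the newborn values of Sln spanned 0.58 in the transgenic group. Myl2 read 14.19, 14.21 and 14.20 in transgenic newborns, against 14.20 and 14.16 in control newborns. Myl3 read 13.99, 14.05 and 14.07 in transgenic newborns, against 14.00 and 14.04 in control newborns. Irx4 read 8.81, 8.83 and 9.17 in transgenic newborns, against 8.88 and 9.02 in control newborns, and the groups overlapped for each of the 7 members. Among all genes 20.9% did not overlap, 11.1% with the transgenic arrays higher and 9.83% with them lower.

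The transgenic effect was not shown to differ between adults and newborns for any member. In the test of the difference 0 of 7 passed, where 0.687% of all genes did. The difference of the adult and newborn log2 fold changes was -3.91 for Sln (SE 1.67, limma adjusted p = 0.455) and -3.17 for Myl7 (SE 1.38, adjusted p = 0.470). Without transgenic adult replicate 1 it was -5.57 for Sln (adjusted p = 0.0179) and -4.48 for Myl7 (adjusted p = 0.0439), and both passed.

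**Figure D3:**
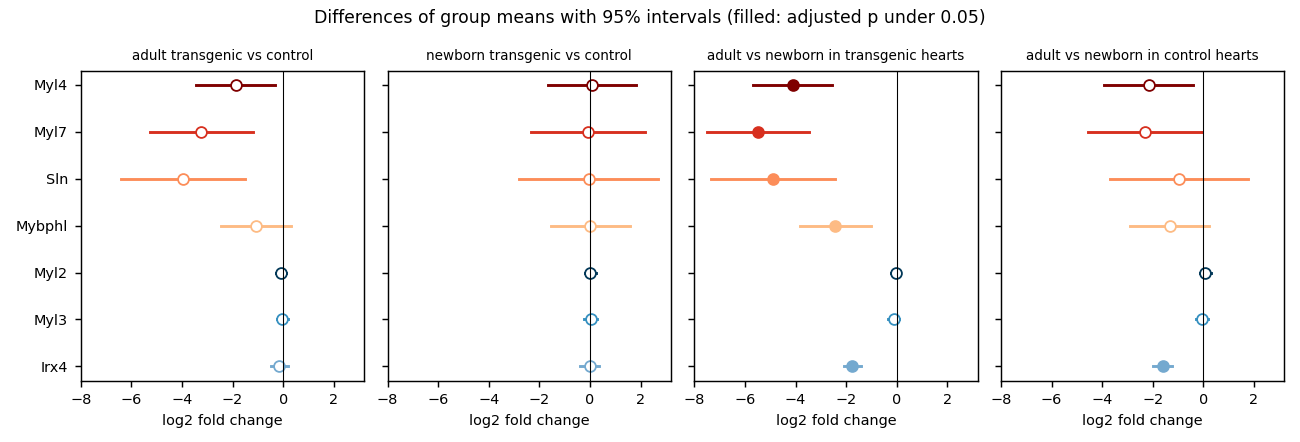
Log2 fold change of each chamber marker with its 95% interval (horizontal axis) in 4 comparisons: transgenic against control adults, transgenic against control newborns, and adult against newborn in transgenic and in control hearts. Filled circles passed at a limma adjusted p under 0.05: Myl4, Myl7, Sln, Mybphl and Irx4 by age in transgenic hearts and Irx4 by age in control hearts.

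By age, Irx4 was lower in adults in both genotypes. In control hearts it averaged 7.34 ± 0.28 in adults (SD, n = 3) and 8.95 ± 0.10 in newborns (SD, n = 2), and fell by 1.61 (SE 0.17, limma adjusted p = 5.47e-05). In transgenic hearts it averaged 7.18 ± 0.07 in adults and 8.94 ± 0.20 in newborns (SD, n = 3 each), and fell by 1.75 (SE 0.15, adjusted p = 1.17e-05). The adult and newborn arrays did not overlap, and the call held under all 23 processing settings tried, in both genotypes. Of the 7 members, on the probe sets used, Irx4 was the only 1 called in control hearts, where 33% of all genes were called (18.1% lower and 14.9% higher in adults). The newborn 18S levels, 10.05 to 10.53, lay between the adult levels of 7.64 to 8.58 and of 11.89 and 12.18. Irx4 was lower on the adult arrays of both levels than on every newborn array. The 2 ages shared no 18S level, so age and what the 18S signal marks, which no label names, cannot be told apart here.

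On the probe sets used, the atrial genes were also lower in adult than in newborn hearts, with a call in transgenic hearts alone. The second Myl4 probe set, described below, passed in both genotypes. In transgenic hearts Myl7 fell by 5.47 (SE 0.92, limma adjusted p = 0.00104) and Sln fell by 4.88 (SE 1.11, adjusted p = 0.00602). Myl4 fell by 4.12 (SE 0.71, adjusted p = 0.00130) and Mybphl fell by 2.42 (SE 0.63, adjusted p = 0.0121). With Irx4 that made 5 of 7 members called lower, where 39.4% of all genes were called and 19.7% were lower. In all 4 genes the transgenic adult arrays lay below the transgenic newborn arrays, as did 24.7% of all genes, with 30% above and 54.6% not overlapping in either direction. Each of the 4 kept its call under the 23 settings, but the low replicates 2 and 3 carry the size: without transgenic adult replicate 2 Sln fell by 3.96 (adjusted p = 0.0227), and without transgenic adult replicate 1 it fell by 6.54 (adjusted p = 3.28e-05).

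In control hearts the atrial changes with age were smaller and did not pass on the probe sets used. Myl4 changed by -2.16 (SE 0.80, limma adjusted p = 0.0588), Myl7 by -2.31 (SE 1.02, adjusted p = 0.105), Mybphl by -1.34 (SE 0.71, adjusted p = 0.162) and Sln by -0.97 (SE 1.24, adjusted p = 0.560). For Myl4, Myl7 and Mybphl every control adult array was below both control newborn arrays, a pattern that 28.5% of all genes showed, while 35.1% did not overlap with adults higher and 63.6% did not overlap in either direction. For Sln control adult replicate 3, at 12.08, was above both control newborns, at 11.58 and 11.63. Without that array Myl4 changed by -2.71 (adjusted p = 0.0285), Myl7 by -3.03 (adjusted p = 0.0474) and Mybphl by -1.94 (adjusted p = 0.0467), and these 3 passed while Sln, at -1.69 (adjusted p = 0.336), did not. Both age comparisons share no array, and the difference between them, which is the same contrast as the difference in transgenic effect above, passed for 0 of the 7 members.

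Myl2 and Myl3 did not pass by age, on probe sets too near the top of the scale to show most changes. In transgenic hearts Myl2 differed by -0.05 (SE 0.09, limma adjusted p = 0.682) and Myl3 by -0.12 (SE 0.10, adjusted p = 0.333). In control hearts Myl2 differed by 0.08 (limma adjusted p = 0.558) and Myl3 by -0.07 (adjusted p = 0.657). By group mean the order of each atrial gene was therefore newborn hearts of both genotypes highest, control adults next and transgenic adults lowest. The 2 newborn groups did not differ beyond their spread in any of the 4, and transgenic and control adults overlapped in all 4.

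The atrial genes were among the most uneven genes on the adult arrays. The SD within adult groups, pooled over both, was 2.22 for Sln, rank 4 of 18194 genes, behind Xist, Eif2s3y and Malat1. It was 1.84 for Myl7 (rank 7), 1.42 for Myl4 (rank 21) and 1.24 for Mybphl (rank 34), where the median over all genes was 0.21. Within newborn groups the SD was 0.24 for Sln, 0.11 for Myl7, 0.12 for Myl4 and 0.27 for Mybphl, where the median over all genes was 0.11. The adult SD was thus 17.1 times the newborn SD for Myl7, 12.0 times for Myl4, 9.17 times for Sln and 4.64 times for Mybphl. In newborns Sln and Mybphl were still among the more uneven genes, at ranks 1235 and 900. Irx4 was near the middle at 0.20 (rank 9665). Myl2, at 0.04 (rank 18044), and Myl3, at 0.10 (rank 16591), lie so near the top of the scale that their small SDs do not show steady levels. The fold range inside the transgenic adult group was 35.9 for Sln, 15.5 for Myl7, 10.1 for Myl4 and 5.57 for Mybphl, against 5.07, 5.09, 3.31 and 4.78 in the control adult group.

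**Figure D4:**
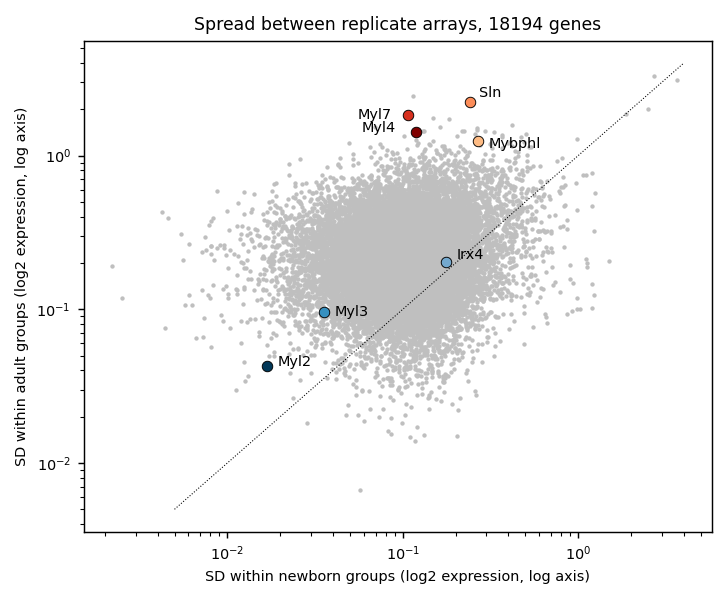
SD of log2 expression within adult groups (vertical, log axis) against SD within newborn groups (horizontal, log axis) for all 18194 genes in grey, with the 7 chamber markers in colour and a dotted line at equal SD. Sln, Myl7, Myl4 and Mybphl lie at the upper edge, at adult SDs of 1.24 to 2.22, while Myl2 and Myl3, near the top of the expression scale, lie near the lower left.

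Other probe sets of the members add a caution. The second Sln probe set read 4.94 to 5.63 on all 11 arrays, and the second Myl4 probe set 4.59 to 5.98, so both stayed low where the probe sets used here were high. The Sln values of 4.82 and 5.20 and the Mybphl values of 5.08 and 5.45 on the low transgenic arrays lie near the array medians, and a fold change drawn from them may understate the difference. The other 2 Myl3 probe sets read 13.04 to 13.46 and 13.77 to 13.99 over the arrays. Myl2, Myl7, Mybphl and Irx4 had 1 probe set each.

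Across the 6 adult arrays the 4 atrial genes followed each other closely. Pearson's r was 0.997 between Myl7 and Sln, 0.982 between Myl4 and Myl7, and 0.932 between Myl4 and Mybphl. These are descriptions of 6 points, of which the 2 low transgenic arrays lie far from the rest. A search for similar genes left out clone and predicted-gene names and the 4 atrial genes themselves. Among the 207 remaining genes with an SD of at least 1 over the 6 adult arrays, the lipid transfer gene Stard10 was most like the mean of the 4 atrial genes, with r = 0.845. Next came Retnla at 0.822, Wif1 at 0.808, Car3 at 0.794, Maob at 0.775, Gpt2 at 0.756, Epha4 at 0.749 and Adipoq at 0.735. Over all 11 arrays, which also share the split by age, Stard10 again came first of 666 genes kept in the same way, with r = 0.915, followed by Tmem163, Tmem35a, Fgf12, Tet1, Rnf207, Lrrc17 and Kit at 0.857 to 0.873.

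For single members over the 11 arrays, similar genes were sought among those with an SD of at least 0.5, without clone and predicted-gene names. For the 4 atrial members they were mostly each other, and for the 3 ventricular ones they held no other member. Myl2 and Myl3 vary too little to be listed for any gene, so the search cannot compare the 2 chambers. Taken directly, r between Myl3 and Irx4 was 0.726 over the 11 arrays and 0.916 over the 6 adult arrays. Between Myl2 and Irx4 it was -0.129 and 0.049, and between Myl2 and Myl3 -0.170 and -0.126. Myl4 had Myl7, Mybphl and Vstm4, Myl7 had Myl4, Sln and Mybphl, and Sln and Mybphl had the other atrial members. Irx4 was nearest to the RNA-binding protein genes Hnrnpa0 and Sfpq, both at r = 0.993, and the histone demethylase gene Kdm4a at 0.991, points that fall into the 2 ages. Myl3 was nearest to Tnrc6b, Erdr1 and Ccni, and Myl2 to Galm, Aasdh and Slc2a12.

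Other atrial markers moved in both directions in adults. Of 13 measured, 2 were higher and 3 lower in transgenic adults, 8 did not pass, and the median log2 fold change was -0.19. Of all genes 4.16% were higher and 2.93% lower. Nppa, the atrial natriuretic peptide gene, which ventricles also make under load, read 14.18, 14.05 and 14.06 in transgenic adults, against 12.02, 11.21 and 12.01 in control adults. It rose by 2.35 (SE 0.19, limma adjusted p = 8.41e-05) on all 3 transgenic arrays, with values near the array maximum. Dkk3, which encodes a secreted protein of the Dickkopf family, read 7.78, 8.11 and 8.64 in transgenic adults, against 5.54, 6.12 and 7.53 in control adults, and rose by 1.78 (SE 0.45, adjusted p = 0.0377).

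Kcnj3 and Kcnj5, which encode the potassium channel through which the vagus nerve slows the heart, were lower on every transgenic adult array than on any control adult array. Kcnj3 read 6.23, 6.41 and 6.22 in transgenic adults, against 8.33, 8.81 and 9.20 in control adults, and fell by 2.49 (SE 0.20, limma adjusted p = 8.13e-05). Kcnj5 fell by 0.89 (SE 0.14, adjusted p = 0.00354). Unlike the 4 atrial members, Kcnj3 was as low in transgenic replicate 1 as in replicates 2 and 3. Stard10 read 7.18, 6.72 and 6.79 in transgenic adults, against 8.07, 8.66 and 9.30 in control adults, and fell by 1.78 (SE 0.27, adjusted p = 0.00317). Its transgenic replicate 1 was the highest of the 3 but still below every control. Of the genes that did not pass, Bmp10, Gja5, Nr2f1 and Cacna1d read 3.37 to 5.47 on the 6 adult arrays. Nr2f2, Tbx5, Kcna5 and Pam, which did not pass either, read 7.32 to 10.65 there. The mean of the 13 genes was 7.18 to 7.35 over transgenic adult arrays and 7.24 to 7.68 over control adult arrays.

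Other ventricular markers moved in both directions. Of 17 measured, 1 was higher and 4 lower in transgenic adults, with a median log2 fold change of -0.21, where 4.16% of all genes were higher and 2.93% lower. Myh7, the slow myosin heavy chain gene, read 12.86, 13.08 and 12.93 in transgenic adults, against 12.10, 9.45 and 9.58 in control adults, and rose by 2.58 (SE 0.53, limma adjusted p = 0.0147). The transient outward potassium channel gene Kcnd2 fell by 2.36 (SE 0.32, adjusted p = 0.00159), and that of its subunit, Kcnip2, fell by 1.27 (SE 0.17, adjusted p = 0.00159). Lrtm1 fell by 1.89 (SE 0.31, adjusted p = 0.00424), and Mpped2 fell by 1.17 (SE 0.26, adjusted p = 0.0223). Hey2, a repressor of atrial genes in the ventricle wall, read 4.28 to 4.64 in transgenic adults, against 4.70 to 5.21 in control adults, and did not pass.

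**Figure D5:**
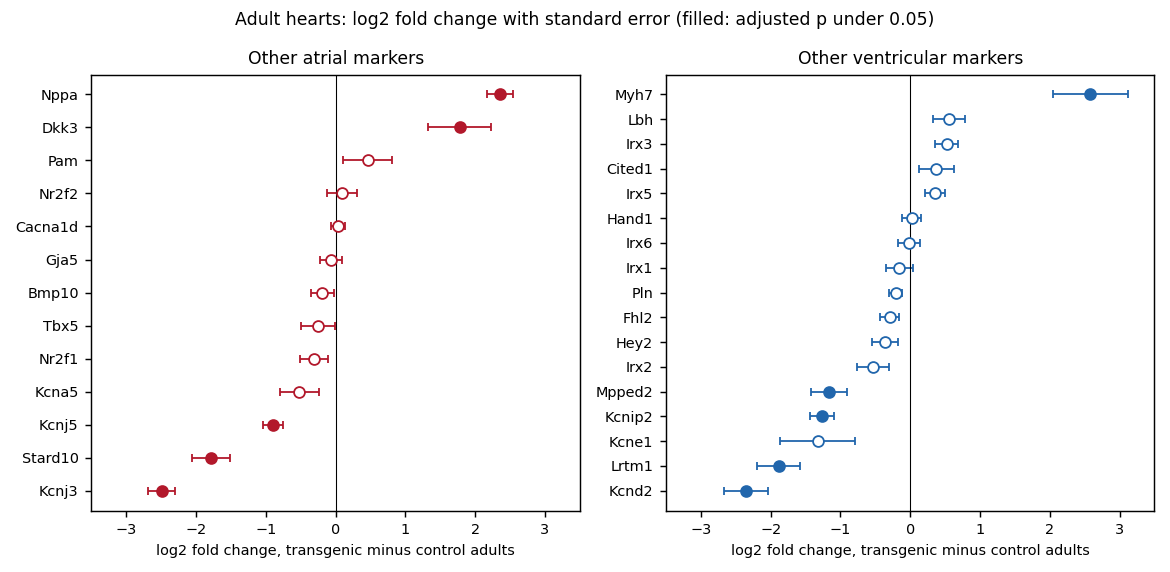
Log2 fold change, transgenic minus control adults, with its standard error (horizontal axis) for the 13 other atrial and 17 other ventricular markers. Filled circles passed at a limma adjusted p under 0.05, and both panels hold genes on either side of 0, from Nppa at 2.35 to Kcnj3 at -2.49 and from Myh7 at 2.58 to Kcnd2 at -2.36.

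Of 11 other myosin light chain family genes 2 were higher and 1 lower in transgenic adults, where 7.09% of all genes were called. Myl1, the essential light chain of fast skeletal muscle, read 12.64, 12.27 and 12.33 in transgenic adults, against 10.74, 8.98 and 11.19 in control adults, and rose by 2.11 (SE 0.44, limma adjusted p = 0.0153). Myl9, the smooth muscle regulatory light chain, rose by 1.26 (SE 0.23, adjusted p = 0.00843). The myosin kinase gene Mylk4 fell by 2.28 (SE 0.58, adjusted p = 0.0383), and read 8.20, 8.76 and 5.78 in transgenic adults, against 9.92, 9.69 and 9.98 in control adults. Of 4 other myosin-binding protein genes and 5 genes of SERCA and its small regulators 0 passed in adults. The SERCA gene Atp2a2 differed by -0.26 (SE 0.11, adjusted p = 0.218), and phospholamban, Pln, a SERCA inhibitor abundant in the ventricles, by -0.21 (SE 0.09, adjusted p = 0.248).

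Of 17 heart muscle genes common to both chambers 1, the intermediate filament gene Des, was higher in transgenic adults, by 0.73 (SE 0.16, limma adjusted p = 0.0198), and 0 were lower. The lists share some genes. Pln is counted here, among the other ventricular markers and with SERCA, Atp2a2 here and with SERCA, and Mybpc3 here and with the myosin-binding proteins. The mean of these 17 genes was 12.31 to 12.63 over transgenic and 12.25 to 12.49 over control adult arrays. Markers of other tissues that a dissection could carry over were counted beside the atrial genes. Among all genes 7.09% passed in this contrast, 4.16% higher and 2.93% lower in transgenic adults. In transgenic adults 0 of 6 sinus node and conduction genes, 0 of 6 lung and thymus genes and 0 of 5 fat genes passed. Of 9 epicardial genes 2 were higher (Tcf21 and Wt1), of 6 smooth muscle genes 3 (Cnn1, Acta2 and Eln), of 6 valve and endocardium genes 1 (Npr3) and of 11 skeletal muscle genes 1 (Tnnt3), and 0 were lower in each of these 4 lists. Their part in the atrial values was not tested. The mean of the 5 fat genes was 5.26 to 5.35 over transgenic adult arrays and 5.41 to 6.82 over control adult arrays, with control replicate 3 on top. In newborns 0 genes of any list passed between transgenic and control hearts.

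By age, 0 of 13 other atrial markers were higher and 8 were lower in transgenic adults than in transgenic newborns, where 39.4% of all genes were called. In control hearts 1 was higher and 4 were lower in adults, where 33% of all genes were called, so the control count lies near the share of all genes. Nr2f1, a transcription factor of atrial identity, fell by 2.40 (SE 0.20, limma adjusted p = 9.02e-06) in transgenic hearts and fell by 2.28 (SE 0.22, adjusted p = 3.32e-05) in control hearts. Of 17 ventricular markers 3 were higher and 6 lower in transgenic adults than in transgenic newborns, and 6 were higher and 6 lower in control adults than in control newborns. Cited1, a transcriptional coregulator of the developing ventricle, fell by 5.05 (SE 0.25, adjusted p = 2.29e-07) in transgenic hearts and fell by 5.35 (SE 0.28, adjusted p = 3.75e-07) in control hearts. Hey2 fell by 3.72 (SE 0.18) in transgenic hearts and fell by 3.60 (SE 0.20) in control hearts. Epicardial markers were lower in adults for 9 of 9 genes in both genotypes, the mean of the list at 5.30 to 5.57 in transgenic adults, against 6.94 to 7.78 in transgenic newborns. How much of the age difference of the atrial members goes with such shifts in tissue was not tested.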

How the data were processed

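RNA of 11 mouse heart arrays was compared. Per the submitters' processing notes RMA, affy and limma were used, with no versions or roles given; the values are the authors' deposited log2 expression, which the labels do not describe further, and the genome build is not given in the sources used here. Of 45101 probe sets 34958 had 1 symbol in the platform annotation, 932 several and 9211 none, which left 18194 genes. The 4 group means were estimated together from the 11 arrays (limma 3.58.1, R 4.3.3), with 7 residual and 3.85 prior degrees of freedom, so adult and newborn arrays share 1 estimate of a gene's spread. Tests were two-sided and adjusted by Benjamini-Hochberg over all genes, with calls under 0.05. The calculation was tested on simulated data. The members, the gene lists and the rule for naming genes (up to 4 of a list by p in adults, up to 2 by age) were chosen with earlier results of these data known; list genes named beyond the rule were chosen after their values were seen. Some list genes, among them Strit1, Erln, Hcn4, Plin1 and Cfd, are not analysed here. Arrays hold no read depth, so their number limits the precision. The alternatives were the replicate number as a block, low-value, probe set, variance, scaling and fold settings, the 18S batch and leaving out each array. Promoter sequences come from RefSeq (GRCm38.p6); Sln had no entry in the table.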

Additional observations from a re-analysis of the deposited data

Results flagged for a closer look

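Among the list genes, 3 differed between ages in their transgenic effect by limma's test of the difference, where 0.687% of all genes did. The adult effect exceeded the newborn effect by 2.12 on the log2 scale for Nppa (SE 0.28, adjusted p = 0.00875) and by 1.59 for the smooth muscle calponin gene Cnn1 (SE 0.29, adjusted p = 0.0382), and for Kcnj3 the difference was -2.37 (SE 0.29, adjusted p = 0.00713). Nppa read 13.55 and 13.54 in control newborns, with array maxima of 14.32 and 14.22, so a rise of the adult size could not have shown in newborns and its difference between ages is set in part by the scale. Kcnj3 read 7.38, 7.39 and 6.99 in transgenic newborns, against 7.41 and 7.34 in control newborns. In 4 more genes every transgenic adult array lay on one side of the control adults and every transgenic newborn array on the other side of the control newborns: the differences between ages were -0.28 for Atp2a2, -0.73 for the light chain gene Myl6b, -0.35 for the embryonic myosin gene Myh3 and 0.93 for the lipid droplet gene Cidea. These 4 did not pass limma's test of the difference (adjusted p = 0.669, 0.154, 0.452 and 0.332). Among all genes 17.9% did not overlap between the adult groups and 20.9% between the newborn groups. The share of all genes that did so in opposite directions was not counted, so the 4 are not read as a result. None of the 7 chamber markers met either condition. Groups of 2 and 3 arrays are too small for a check of single outlying arrays.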

How the results depend on the processing

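Leaving out 1 array at a time, the adult transgenic comparison called 746 to 2267 genes and 0 to 3 members against 1290 and 0 in the report, the newborn comparison 0 to 0 of both, the difference between ages 6 to 540 genes (125) and 0 to 2 members, the age comparison 2829 to 7430 genes (6006) and 1 to 4 members (1) in control hearts and 4971 to 7981 genes (7161) and 5 to 5 members in transgenic hearts. The adult transgenic comparison called 373 genes with the adult arrays alone, 2625 with the 18S batch as a factor and 2183 without that batch. It called 2 members, Myl7 and Sln, with the filter on low values (adjusted p = 0.0465 and 0.0440), with array weights (0.0368 and 0.0345) and with the 18S factor (0.0386 and 0.0368), but 0 with the adult arrays alone (0.238 and 0.230). The difference between ages called 53 genes with the replicate block, 841 with array weights, 494 with the 18S factor and 711 without the batch; with the compared groups alone it has no fit of its own. The control age comparison called 11046 of all probe sets, and 2 members with the filter, 2 with probe sets averaged per gene, 4 with array weights, 3 with the compared groups alone and 4 without the 18S batch. The transgenic age comparison called 13620 of all probe sets and 4359 genes at a fold of at least 1.5. Directions turned for small changes: adult Myl3 was -0.10 to 0.012 over single arrays left out, and the newborn changes were -0.13 to 0.057 for Irx4, -0.084 to 0.20 for Mybphl, -0.00045 to 0.038 for Myl2, -0.00044 to 0.042 for Myl3 and -0.18 to 0.11 for Sln. With the mean of probe sets newborn Myl3 was -0.028, Myl4 -0.057 and Sln 0.064, and with cyclic loess Mybphl was -0.0051. The data do not settle whether replicate numbers pair the arrays. Deviations of same-numbered adult arrays correlated at 0.31, -0.06 and 0.45. Transgenic replicate 2 and control replicate 2 correlated best with another number, and replicates 1 and 3 of both adult groups with their own. Same-numbered newborn arrays gave 0.18 and -0.15. The 2 control newborns deviate from their mean in mirror image, so the newborn values cannot bear on pairing. With the replicate block adult Myl7 and Sln had adjusted p = 0.103 and 0.0892, and newborn Sln turned to 0.11. The cause of these changes was not tested. The wide adult spread and the small number of arrays limit the members' tests.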
